A study of Mus musculus with 6 samples.

Results

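Rhox, Xlr and Magea genes are 3 families of X-linked genes that are known for expression in the germline, and they were followed here in androgenetic haploid embryonic stem cells (AG-haESCs), round sperm and embryonic stem cells labelled XX. Members were chosen by symbol alone, as every gene name that starts with Rhox, Xlr or Magea directly followed by a digit, which gave 47 of the 23889 genes in the tables. They were 30 Rhox genes, 9 Xlr genes and 8 Magea genes, and a RefSeq annotation placed all 47 on chromosome X. No measured value entered that rule, but the families were selected on earlier results of these same libraries. Their differences between groups are therefore given as a description and are not independent evidence.

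AG-haESCs were sampled as 3 lines, named A129-2, AOS-14 and AOS-16, each in a single library. Their strain is given as an F1 hybrid, C57BL/6 X DBA/2. Per the labels, a sperm head was injected into an oocyte whose spindle had been taken out, the blastocysts were plated on feeders in medium with KSR, a serum replacement, and 2i (a pair of kinase inhibitors that keeps stem cells in a ground state), and haploid cells in G0/G1 were sorted after Hoechst staining. Round sperm is 1 library of the same strain, labelled sperm, whose label repeats the culture and sorting text of the lines. ESC XX is 2 libraries of cells on an Oct-GFP (C57) background, grown in serum, LIF and 2i and collected after feeders were removed, with no sort named. Each AG-haESC line came from its own derivation and is a single line, and nothing in the labels says that the ESC XX replicates are separate cultures, so their spread may be technical. ESC XX differs from the lines in strain, medium and sorting as well as in cell type. By the labels it also differs in ploidy and number of X chromosomes (XX against haploid). The X of the lines came from sperm alone. These differences cannot be told apart.

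Values are FPKM, fragments scaled by transcript length in kilobases and by library depth. By the steps of low values, depth was about 8.25 M fragments (M, mega) at the least, in A129-2, and 17.6 M at the most, in AOS-14, so that 1 fragment on a transcript of 1 kb was worth 0.0567 to 0.121 FPKM. Between 11406 and 12515 genes reached 1 FPKM in a library. The 6 pluripotency markers summed to 1690 to 2342 FPKM in the lines, 1668 and 1637 in ESC XX and 233 in round sperm. Pou5f1 and Nanog were high in the lines and in ESC XX. Klf4 went the other way and made up most of the sum in round sperm, at 219 FPKM. It stood at 46.5 in A129-2, 116 in AOS-14, 86.2 in AOS-16, and 76.8 and 76.4 in ESC XX. The 7 spermatid markers, Prm1 and Tnp1 among them, summed to 38301 FPKM in round sperm and to at most 1.91 in any other library. The 8 spermatocyte markers summed to 10122 FPKM in round sperm, most of it Ldhc (8314) and Hspa2 (1492). The others lay between 25.1 for Hormad1 and 90.2 for Sycp3. Sycp1 stood at 57.4 and Spo11 at 43.7, so transcripts typical of meiosis were also in that library. Hormad1 was near its level in the lines, 18.2 to 23.9 FPKM. Eef1a1, a translation factor that every cell uses, was listed at 0 in all 3 lines, while ESC XX held 6397 and 6462 FPKM of it. A 0 may thus be an estimate that failed, and members are called listed at 0 for that reason. The files of ESC XX were scaled apart from the others, and a level set beside theirs carries that limit throughout. In bulk RNA, fewer cells that express a gene and less RNA per cell cannot be told apart.

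As background, Rhox genes encode homeobox transcription factors and lie in 1 cluster on the mouse X, where Rhox2, Rhox3 and Rhox4 were amplified into lettered copies. They are known for expression in testis, ovary and placenta, and the cluster is known to be silenced by DNA methylation during embryonic development. Xlr (X-linked lymphocyte regulated) genes are related to Sycp3, a protein of the meiotic chromosome axis, and Xlr3b, Xlr4b and Xlr4c are known for expression from the maternal X in mouse brain. Magea genes are cancer-testis genes, normally active in male germ cells before meiosis and switched on again in some tumours, and MAGE proteins bind RING-type ubiquitin ligases. Genes of the X are known to be silenced during male meiosis, and only some of them are transcribed again in round spermatids. The founding member Rhox5 was not analysed here.

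The stretches before the start sites are shown for members that results below turn on, read from RefSeq on build GRCm38.p6, which is another build than the mm9 of the tables. CpG sites, where DNA methylation acts, are in capitals. Rhox1 and Rhox13 are the Rhox genes with the highest levels in the lines among those with such a stretch, Xlr3a is that of the Xlr family, Magea8 is the Magea gene with the largest difference from ESC XX, Rhox11 is the member with the highest level in round sperm, and Xlr3b is the Xlr gene that did not meet the rule in the comparison with ESC XX. Rhox1 lies at chrX:37222259-37222508, minus strand, Rhox13 at chrX:38120590-38120839, plus strand, Rhox11 at chrX:38085140-38085389, minus strand, Xlr3a at chrX:73097096-73097345, minus strand, Xlr3b at chrX:73191929-73192149, plus strand, and Magea8 at chrX:154995851-154996100, minus strand. Each runs 5′ to 3′ over 250 bases, apart from 221 for Xlr3b, and ends before the annotated first base of the gene. The window of Xlr3b was shortened because its last bases run into the gene.
Rhox1: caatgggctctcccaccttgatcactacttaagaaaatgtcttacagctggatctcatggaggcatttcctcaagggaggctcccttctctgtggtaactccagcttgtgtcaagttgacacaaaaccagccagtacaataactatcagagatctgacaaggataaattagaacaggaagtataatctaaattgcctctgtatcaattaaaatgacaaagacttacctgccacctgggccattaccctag
Rhox13: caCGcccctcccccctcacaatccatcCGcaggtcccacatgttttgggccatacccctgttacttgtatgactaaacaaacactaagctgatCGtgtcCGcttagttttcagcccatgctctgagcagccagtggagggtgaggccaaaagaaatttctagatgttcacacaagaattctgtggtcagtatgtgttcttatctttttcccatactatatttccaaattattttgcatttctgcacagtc
Rhox11: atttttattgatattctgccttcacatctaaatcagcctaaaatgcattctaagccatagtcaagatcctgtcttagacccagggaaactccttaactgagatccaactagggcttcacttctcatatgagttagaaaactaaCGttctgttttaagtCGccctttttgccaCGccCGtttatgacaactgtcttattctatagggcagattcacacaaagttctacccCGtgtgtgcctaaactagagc
Xlr3a: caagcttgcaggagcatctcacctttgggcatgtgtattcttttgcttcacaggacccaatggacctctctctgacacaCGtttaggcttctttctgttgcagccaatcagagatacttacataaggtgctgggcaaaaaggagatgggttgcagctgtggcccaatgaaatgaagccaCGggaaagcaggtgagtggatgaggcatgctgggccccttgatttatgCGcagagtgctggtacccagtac
Xlr3b: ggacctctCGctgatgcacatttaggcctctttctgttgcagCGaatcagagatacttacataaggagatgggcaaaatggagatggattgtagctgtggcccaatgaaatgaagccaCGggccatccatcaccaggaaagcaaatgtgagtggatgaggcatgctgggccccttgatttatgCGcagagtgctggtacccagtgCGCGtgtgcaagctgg
Magea8: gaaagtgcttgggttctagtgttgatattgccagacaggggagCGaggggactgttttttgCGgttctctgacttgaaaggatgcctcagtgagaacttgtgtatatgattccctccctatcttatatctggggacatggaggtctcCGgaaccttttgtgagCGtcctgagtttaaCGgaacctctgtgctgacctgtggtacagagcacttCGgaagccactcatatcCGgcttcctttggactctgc

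These stretches hold few CpG sites, from 0 in Rhox1 to 7 in Magea8, with 4 in Rhox13, 5 in Rhox11, 3 in Xlr3a and 6 in Xlr3b. The same 250 bases were found for 41 of the 47 members, and their median was 5 CpG sites, against 6 over all 32851 promoters in the table and 5 over those on the X. No CpG was present in 5 of the 41 (12.2%), compared with 7.87% of all promoters and 11.0% of X-linked ones, so by this count the members lay near other X-linked genes. The highest counts were 12 in Xlr5a and 14 in Xlr5b, while the third copy, Xlr5c, had 1. CCAAT, searched on both strands, was in 23 of the 41 (56.1%), against 33.8% of all promoters and 41.2% of X-linked ones; it was in every Rhox2 and Rhox4 copy found and in Xlr3a and Xlr3b, but not in the printed stretches of Rhox1, Rhox13, Rhox11 or Magea8. CACGTG was in 4 (9.76%), all of them Rhox4 copies, against 6.02% of all promoters and 7.11% of X-linked ones. GCGGGAA was in none of the 41, against 3.82% of all promoters. Xlr3a and Xlr3b shared 53 windows of 20 bases, which is 22.9% of the windows of Xlr3a and 26.2% of those of Xlr3b. A match of letters is a description and no site of binding.

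Copies of these families resemble each other, which limits what a value of a single copy can say. In the transcripts of a GRCm38 annotation, a median of 60.5% of the 50-base windows of a member also occurred in another gene, and the share was at least 50% for 31 members. It was highest for Rhox2e, at 100%, and the Rhox4 copies (66.8 to 93.7%) and Xlr5 copies (84.2 to 90.7%) were also hard to tell apart. How the authors' counting placed fragments that match several copies is not given in the sources used here. In AOS-16, Rhox2e and Rhox2f carried the same value, and so did Rhox2c and Rhox2h. Sums over a family or over its lettered copies are therefore given beside the single genes. The 9 members with under 10% of such windows, Rhox1, Rhox8, Rhox9, Rhox10, Rhox11, Rhox12, Rhox13, Magea4 and Magea10, carry little of this limit, and together they summed to 137, 139 and 60.9 FPKM in the lines, 20.1 in round sperm and 3.41 and 5.38 in ESC XX.

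Summed over each family, levels were higher in all 3 AG-haESC lines than in round sperm and in both ESC XX libraries. Values of the lines are given in the order A129-2, AOS-14 and AOS-16, and those of ESC XX in the order of replicates 1 and 2. The 30 Rhox genes summed to 168, 206 and 107 FPKM in the lines, 30.3 in round sperm, and 5.85 and 7.08 in ESC XX. The 9 Xlr genes summed to 297, 97.7 and 328 FPKM in the lines, 1.11 in round sperm, and 14.4 and 14.5 in ESC XX. The 8 Magea genes summed to 77.0, 37.7 and 23.9 FPKM in the lines, 1.27 in round sperm, and 1.08 and 0.935 in ESC XX. No line overlapped round sperm or ESC XX in any of the 3 sums, and the order of the lines differed by family, with AOS-14 highest for Rhox and lowest for Xlr.

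**Figure D1:**
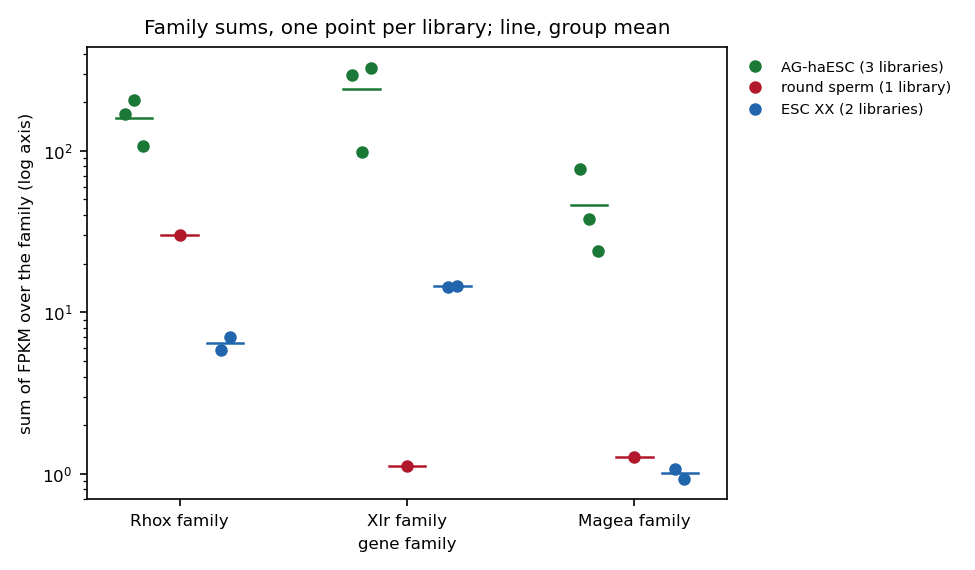
Sum of FPKM over the 30 Rhox, 9 Xlr and 8 Magea genes on a log axis, 1 point per library, with a line at the mean of each group. The AG-haESC points lie above those of round sperm and ESC XX in every family, Xlr is lowest in AOS-14 at 97.7 FPKM, and round sperm reaches 30.3 FPKM for Rhox but 1.11 for Xlr and 1.27 for Magea.

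On TPM (values rescaled so that each library has the same total), the mean sum of the lines was 21.4 times that of ESC XX for Rhox, 15.4 times for Xlr and 41.7 times for Magea. On the log2 scale these ratios were 4.42, 3.95 and 5.38, and the sums of the 3 lines spread around their mean with an SD of 0.39, 1.21 and 0.96. Between single libraries the ratio ran from 14.0 to 28.7 for Rhox, from 4.83 to 21.1 for Xlr and from 20.6 to 82.0 for Magea. The Magea value leaned on A129-2, without which the log2 ratio was 4.61 to ESC XX and 4.60 to round sperm. Against round sperm, within the shared table, the mean FPKM sum of the lines was 5.30 times as high for Rhox, 216 times for Xlr and 36.4 times for Magea. Those 3 ratios depend on the scaling, since the round sperm library had the largest total, and with equal totals they went on the log2 scale from 2.41 to 3.48, from 7.76 to 8.94 and from 5.19 to 6.34. No test was made of sums.

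Of the 47 members, 26 reached 1 FPKM in every line and 32 in at least 1, compared with 7 in each ESC XX library and 6 in round sperm. In round sperm the 6 were all Rhox genes. Another 10 members stayed under 1 FPKM in all 6 libraries. Of these, Rhox3e, Rhox4c and Rhox12 were listed at 0 everywhere, and the others peaked between 0.0858 FPKM for Magea1 and 0.927 for Rhox2e. Among Rhox genes under 1 FPKM, Rhox3c was next, at 0.878 FPKM in round sperm and listed at 0 elsewhere, and Rhox4d reached 0.372 in A129-2.

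**Figure D2:**
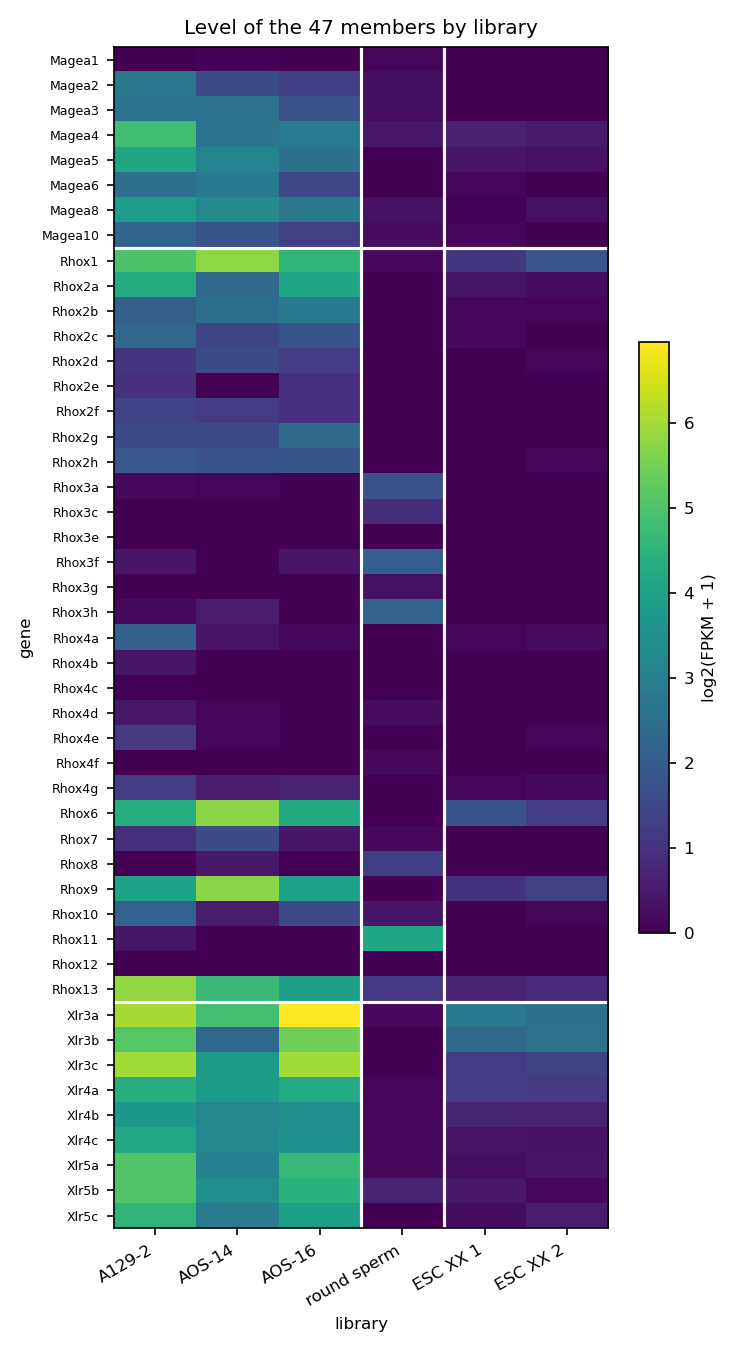
Level of the 47 members (rows) in the 6 libraries (columns) as log2(FPKM + 1), with white lines between families and between groups. Xlr and Magea rows are bright only in the 3 AG-haESC columns, apart from weaker Xlr3a, Xlr3b, Xlr3c and Xlr4a in ESC XX, and in round sperm the brightest cell is Rhox11 at 16.5 FPKM.

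Among Rhox genes, 4 members outside the lettered copies carried most of the level in the lines. Rhox1, Rhox6, Rhox9 and Rhox13 together made up 72.7%, 89.0% and 64.7% of the Rhox sum in the lines and 88.5% and 87.5% in ESC XX, but 4.48% in round sperm. Rhox1, the first gene in the order of the cluster, stood at 31.2, 53.5 and 22.3 FPKM in the lines, 0.135 in round sperm, and 1.13 and 2.57 in ESC XX. Rhox6 stood at 19.9, 52.9 and 17.9 FPKM in the lines, was listed at 0 in round sperm, and stood at 2.40 and 1.32 in ESC XX. Rhox9 stood at 15.5, 52.5 and 14.8 FPKM in the lines, was listed at 0 in round sperm, and stood at 1.04 and 1.51 in ESC XX. Rhox6 and Rhox9 are close relatives, known as Psx genes for their expression in placenta, and share 159 of their 50-base windows. All 3 were highest in AOS-14, and the other lines lay between 14.8 and 31.2 FPKM. Rhox13, the last gene in that order and known in male germ cells, had another order, with 55.8, 24.6 and 14.3 FPKM in the lines, 1.22 in round sperm, and 0.621 and 0.789 in ESC XX. In each of the 4 genes the lowest line lay above round sperm and both ESC XX libraries, a count that was not made over all genes.

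The 8 Rhox2 copies summed to 34.0, 18.3 and 34.5 FPKM in the lines and to 0.509 and 0.444 in ESC XX, and all 8 were listed at 0 in round sperm. Rhox2a was the highest copy, at 18.4, 4.18 and 16.0 FPKM in the lines and 0.303 and 0.177 in ESC XX. Rhox2b followed with 3.34, 4.71 and 6.05 FPKM in the lines and 0.105 and 0.0917 in ESC XX. In A129-2 and AOS-16 the listed values were thus centred on Rhox2a, while in AOS-14 those of Rhox2a and Rhox2b were alike. Rhox2a shares 91.1% and Rhox2b 82.3% of their windows with other genes, so these values cannot say which copy carried the level. Rhox2c stood at 3.96, 1.76 and 2.47 FPKM in the lines and 0.102 and 0 in ESC XX. Rhox2d stood at 1.05, 1.96 and 1.35 FPKM in the lines and 0 and 0.0865 in ESC XX. Rhox2h stood at 2.88, 2.46 and 2.47 FPKM in the lines and 0 and 0.0889 in ESC XX. Rhox2h was the copy that varied least between lines. Rhox2g stood at 1.91, 1.95 and 4.33 FPKM in the lines, Rhox2f at 1.62, 1.32 and 0.927, and both were listed at 0 in ESC XX. Rhox2e, which shares all its windows with other genes, stood at 0.899, 0 and 0.927 FPKM in the lines and was also listed at 0 in ESC XX.

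The 7 Rhox4 copies were low and came mainly from A129-2, with sums of 6.59, 0.906 and 0.712 FPKM in the lines, 0.291 in round sperm, and 0.162 and 0.349 in ESC XX. Rhox4a stood at 3.34, 0.294 and 0.130 FPKM in the lines and 0.0855 and 0.149 in ESC XX. Rhox4e stood at 1.22, 0.0653 and 0 FPKM in the lines and 0 and 0.0666 in ESC XX, so AOS-14 and AOS-16 lay within the range of ESC XX for this gene and near it for Rhox4a. Rhox4g stood at 1.35, 0.456 and 0.581 FPKM in the lines and 0.0761 and 0.133 in ESC XX. Rhox4a, Rhox4e and Rhox4g were listed at 0 in round sperm. Outside the lettered copies, Rhox10, known for its role in spermatogonial stem cells, stood at 3.53, 0.454 and 1.91 FPKM in the lines, 0.330 in round sperm, and 0 and 0.0918 in ESC XX. Rhox7 stood at 0.943, 2.01 and 0.347 FPKM in the lines, 0.118 in round sperm, with a listed 0 in ESC XX. Both spread widely between the lines, and for Rhox10 the lowest line, AOS-14, was close to round sperm.

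Another set of Rhox genes was highest in round sperm. Rhox11 stood at 16.5 FPKM there and at 0.345, 0 and 0 in the lines, with a listed 0 in ESC XX. It alone made up 54.4% of the Rhox sum of round sperm, and the Rhox3 copies another 33.9%. The 6 Rhox3 copies summed to 10.3 FPKM in round sperm and to 0.579, 0.535 and 0.284 in the lines, and all 6 were listed at 0 in ESC XX. Rhox3h stood at 3.67 FPKM in round sperm and 0.124, 0.476 and 0 in the lines. Rhox3f stood at 3.20 FPKM in round sperm and 0.330, 0 and 0.284 in the lines. Rhox3a stood at 2.28 FPKM in round sperm and 0.125, 0.0598 and 0 in the lines. The 3 copies showed the same pattern, but they share 62.0 to 97.0% of their windows with other genes. Rhox8, known in Sertoli cells, stood at 1.46 FPKM in round sperm, 0, 0.403 and 0 in the lines, with a listed 0 in ESC XX. Of the 8 Sertoli markers, which summed to 24.2 FPKM in round sperm and to 5.59 to 10.4 in the lines, Cst12 stood at 8.30 FPKM, Inha at 5.46 and Defb36 at 3.82 in round sperm, while the defining genes Sox9, Wt1 and Amh stood at 0.0697, 0.286 and 0.314. Their part in the level of Rhox8 was not tested.

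**Figure D3:**
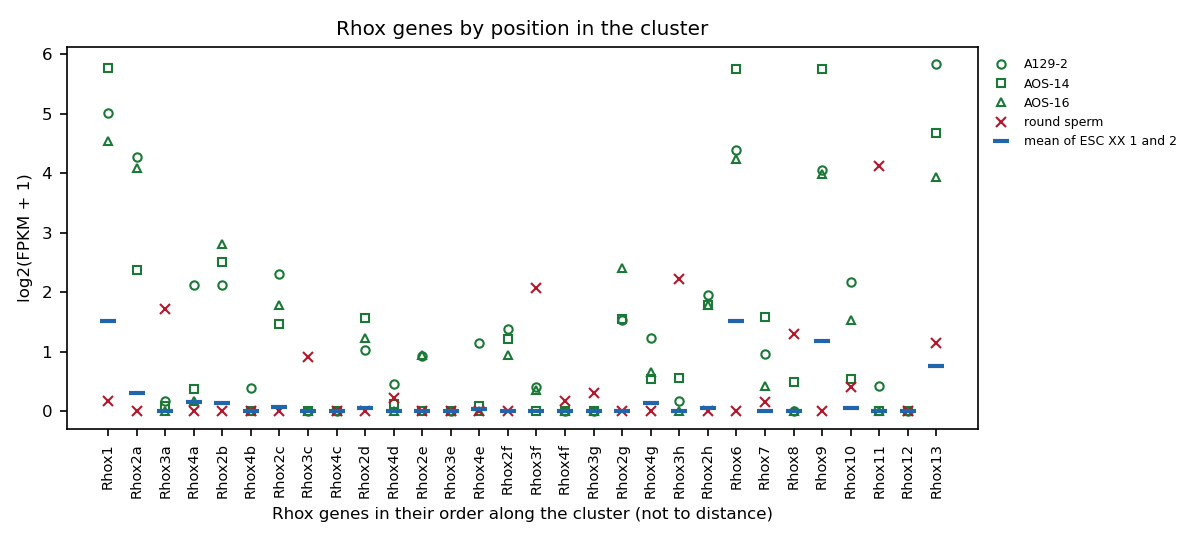
Level of the 30 Rhox genes as log2(FPKM + 1), in their order along the cluster and not to distance, with 1 green mark per AG-haESC line, a red cross for round sperm and a blue bar for the mean of the ESC XX libraries. In the lines, Rhox1, Rhox6, Rhox9 and Rhox13 stand highest with Rhox2a near them, and the red crosses lie above all lines at Rhox3a, Rhox3c, Rhox3f, Rhox3g, Rhox3h, Rhox4f, Rhox8 and Rhox11.

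All 9 Xlr genes were above round sperm and both ESC XX libraries in A129-2 and AOS-16 on FPKM, and all but Xlr3b also in AOS-14. Such a count was not made over all genes, so it marks nothing particular to this family. The Xlr3 copies were the highest, with sums of 160.5, 45.1 and 229.7 FPKM in the lines, 0.127 in round sperm, and 11.4 and 11.6 in ESC XX. Xlr3a reached the highest level of any member, with 64.8, 28.3 and 123 FPKM in the lines, 0.127 in round sperm, and 6.03 and 4.94 in ESC XX. Xlr3c stood at 62.0, 12.8 and 63.1 FPKM in the lines and 1.34 and 1.54 in ESC XX, and was listed at 0 in round sperm. Xlr3b stood at 33.7, 4.04 and 43.6 FPKM in the lines and 4.01 and 5.12 in ESC XX, and was listed at 0 in round sperm. For Xlr3b the AOS-14 line lay within the range of ESC XX on FPKM, and the other 2 lines lay above both. On TPM, AOS-14 lay below both ESC XX libraries, at 5.71 against 7.89 and 10.1. In ESC XX the Xlr3 copies made up 79.0% and 79.9% of the Xlr sum, compared with 54.1%, 46.1% and 70.1% in the lines.

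The Xlr4 copies varied least between lines within the family, with sums of 49.2, 29.5 and 38.8 FPKM in the lines, 0.267 in round sperm, and 2.27 and 2.08 in ESC XX. Xlr4a stood at 19.8, 12.99 and 18.6 FPKM in the lines, 0.0928 in round sperm, and 1.32 and 1.21 in ESC XX. Xlr4b stood at 12.1, 8.29 and 9.83 FPKM in the lines, 0.0845 in round sperm, and 0.657 and 0.621 in ESC XX. Xlr4c stood at 17.3, 8.27 and 10.4 FPKM in the lines, 0.0899 in round sperm, and 0.291 and 0.254 in ESC XX. In all 3 copies A129-2 was the highest line and AOS-14 the lowest. The Xlr5 copies summed to 86.9, 23.1 and 59.3 FPKM in the lines, 0.718 in round sperm, and 0.758 and 0.846 in ESC XX, and on TPM their ratio of 65.8 to ESC XX exceeded the 11.8 of Xlr3 and the 16.3 of Xlr4. Xlr5a stood at 32.3, 7.19 and 24.1 FPKM in the lines, 0.127 in round sperm, and 0.206 and 0.288 in ESC XX. Xlr5b stood at 32.4, 9.60 and 20.7 FPKM in the lines, 0.591 in round sperm, and 0.382 and 0.111 in ESC XX. Xlr5c stood at 22.2, 6.31 and 14.5 FPKM in the lines and 0.170 and 0.447 in ESC XX, and was listed at 0 in round sperm. The 3 copies had the same order of lines, A129-2 above AOS-16 above AOS-14. They share 84.2 to 90.7% of their windows with other genes, so their orders are not independent. The count of CpG sites before their starts differed, and its part in the levels was not tested.

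Of the 8 Magea genes, 7 were above every round sperm and ESC XX value in all 3 lines on FPKM, and Magea1 was at most 0.0858 FPKM. Such a count was not made over all genes, so it marks nothing particular to this family. Magea4, which shares 2.34% of its windows with other genes, stood at 27.0, 5.43 and 6.16 FPKM in the lines, 0.369 in round sperm, and 0.554 and 0.415 in ESC XX. Magea5 stood at 16.3, 7.84 and 4.92 FPKM in the lines and 0.351 and 0.268 in ESC XX, and was listed at 0 in round sperm. Magea8 stood at 14.0, 8.61 and 5.72 FPKM in the lines, 0.254 in round sperm, and 0.0413 and 0.253 in ESC XX. These 3 genes made up 74.5%, 58.0% and 70.2% of the Magea sum in the lines. Magea3 stood at 5.26, 5.20 and 2.41 FPKM in the lines, 0.203 in round sperm, with a listed 0 in ESC XX. Magea6 stood at 4.78, 6.07 and 1.82 FPKM in the lines, was listed at 0 in round sperm, and stood at 0.0594 and 0 in ESC XX. Magea2 stood at 5.71, 2.08 and 1.42 FPKM in the lines, 0.186 in round sperm, with a listed 0 in ESC XX. Magea10, which shares no window with another gene, stood at 3.84, 2.47 and 1.48 FPKM in the lines, 0.170 in round sperm, and 0.0738 and 0 in ESC XX. In Magea4 and Magea10, whose fragments can be told from other copies, the lines were thus also the highest group. Both were under 1 FPKM in round sperm and ESC XX, which were scaled apart, so their order there cannot be read.

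The lines differed from each other by family. The 26 members at 1 FPKM in every line had a median ratio of 3.14 between the highest and the lowest line, from 1.17 for Rhox2h to 10.8 for Xlr3b, compared with a median of 1.5 over all 10608 genes at or above 1 FPKM in every line. Those genes were not matched to the members in level or in shared windows, which limits the comparison. All 9 Xlr genes were lowest in AOS-14. Of the 7 Magea genes above 1 FPKM, 6 were highest in A129-2 and 6 lowest in AOS-16. Of the 16 Rhox genes that reached 1 FPKM in a line, 9 were highest in A129-2, 5 in AOS-14 (Rhox1, Rhox2d, Rhox6, Rhox7 and Rhox9) and 2 in AOS-16 (Rhox2b and Rhox2g). On TPM, A129-2 was highest for 23 of the 32 members that reached 1 FPKM in a line, and 21 on FPKM. With 1 library per line, a difference between lines has no replicate check. AOS-14 was also the most deeply sequenced library and correlated less with the other lines over all genes kept (Pearson r of 0.88 and 0.91, against 0.95 between A129-2 and AOS-16), and the part of this in the Xlr levels was not tested.

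The comparison of AG-haESCs with ESC XX asks what the haploid lines express beyond stem cells cultured in 2i. Members kept by a filter on level were nearly always higher in the lines. A gene was counted as higher or lower when the mean difference of log2(TPM + 1), after the median over all genes was removed, was at least 1 and no line reached into the range of the ESC XX libraries. By this rule, which is no test, 31 members were higher and 0 lower among the 33 that reached 1 TPM in a library, with 16 of 17 Rhox, 8 of 9 Xlr and 7 of 7 Magea genes. The background was 6.93% higher and 7.82% lower among all 14251 genes, and 42.7% higher and 2.29% lower among the 567 X-linked genes, whose median difference was 0.89. The 2 that did not meet the rule were Xlr3b and Rhox4e. Among the 31, Rhox2e, Rhox4a and Rhox4g met it only through the removal of the median, which was -0.10, and without it their differences were 0.97, 0.94 and 0.94. On TPM as such the lines overlapped ESC XX for Rhox2e and Rhox4a, and in the other 29 every line lay above both ESC XX libraries. Overlap alone was not counted over all genes, as the background above is that of the whole rule. Most of the 33 reached 1 TPM only in the lines, so the filter itself left little room for a lower count. Among all members above 0 in any of these libraries, 29 of 41 were higher and 0 lower, beside 4.58% and 6.47% of all genes. Without any filter on level, the median difference was 2.39 over all 47 members, 1.05 for Rhox, 3.86 for Xlr and 3.02 for Magea, against 0.25 for the 1040 X-linked genes and 0.10 for all genes.

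The differences were highest for Xlr5b (4.61 ± 1.09 on the log2 scale, mean ± SD of the 3 lines), Xlr5a (4.53 ± 1.34) and Rhox13 (4.42 ± 1.07). Xlr3c followed at 4.18 ± 1.53, Xlr5c at 3.97 ± 1.11, and Rhox2a, Xlr4c and Rhox1 at 3.86, 3.86 and 3.83. Magea8, at 3.78 ± 0.71, was the highest of its family, and as a ratio of mean TPM it was 57.8 times as high as in ESC XX. Differences were smallest for Rhox4e (0.65 ± 0.98), Rhox4g (1.05 ± 0.59) and Rhox4a (1.05 ± 1.45), and for Rhox4e and Rhox4a the SD of the lines exceeded the difference. Without A129-2, Rhox4a stood at 0.29, Rhox4g at 0.80 and Rhox2e at 0.90, below the bound, and Magea4 went from 3.30 to 2.59. Without AOS-16, Rhox2e stood at 0.87, and without replicate 1 of ESC XX, Rhox4a and Rhox4g stood at 0.98. Without AOS-14, Rhox2a went from 3.86 to 4.52, Xlr3c from 4.18 to 4.97 and Xlr5a from 4.53 to 5.19, Rhox4a overlapped ESC XX, and Xlr3b, at 2.89, met the rule. Measured against the median of X-linked genes, an alternative chosen after the data were seen, 24 members stayed higher beside 1.09% of all genes, and Rhox2d, Rhox2e, Rhox2f, Rhox4a, Rhox4g, Rhox7 and Rhox10 no longer met the bound. Without removal of the median the split over all genes was 644 higher and 1361 lower, and the members stood at 28 and 0.

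**Figure D4:**
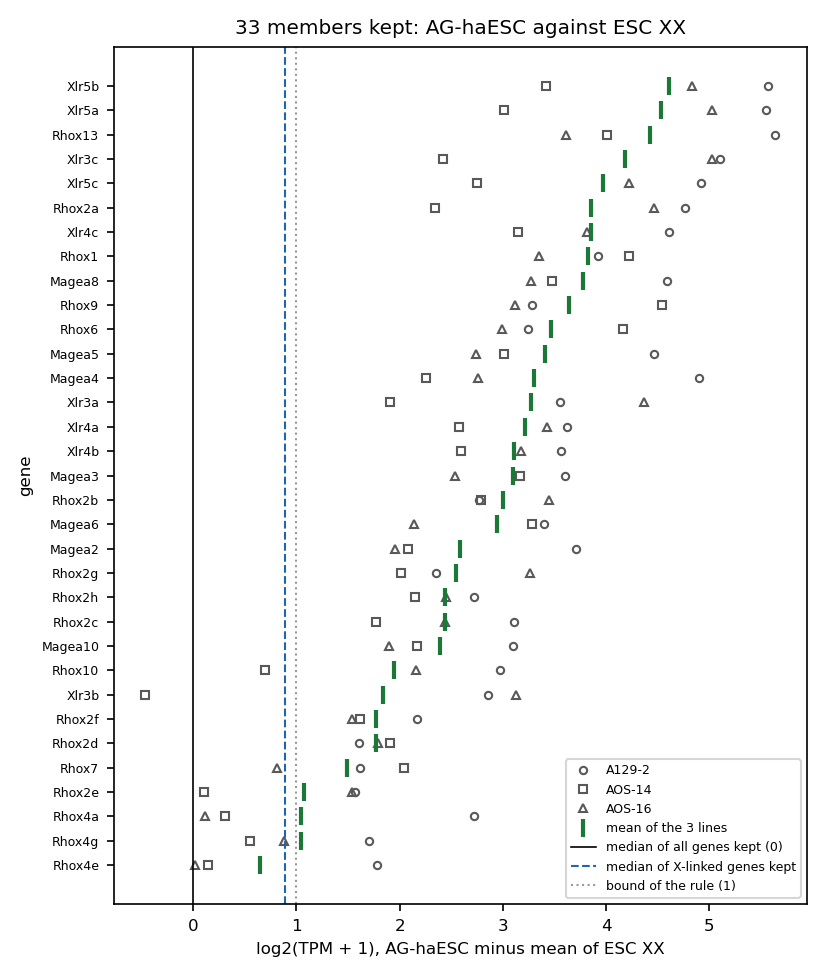
Difference of log2(TPM + 1) from the mean of ESC XX for the 33 members that reached 1 TPM, after the median over all genes was removed, with 1 open mark per AG-haESC line and a green bar at their mean. Bars run from 0.65 for Rhox4e to 4.61 for Xlr5b, the dashed line marks the median of X-linked genes at 0.89, and for Xlr3b the AOS-14 mark alone lies below 0.

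Feeder markers moved with this comparison. All 7 fibroblast markers were lower in the lines than in ESC XX by the same rule, and their sum was 136 to 271 FPKM in the lines, 1059 and 1058 in ESC XX and 12.6 in round sperm. Col1a1 stood at 5.68, 39.9 and 52.1 FPKM in the lines and 357 and 346 in ESC XX, and none of the 7 was listed at 0 in any of these libraries. The part of feeder RNA in the differences of the members was not tested. Pluripotency markers met the rule in 0 of 6 cases. Of the 8 trophoblast markers, 2 were higher in the lines, Hand1 and Tfap2c, and Cdx2 and Elf5 stayed under 1 FPKM in all 6 libraries, beside Rhox6 and Rhox9 that are known from placenta. Of the 9 primordial germ cell markers, 4 were higher, Dazl (2.49 ± 0.68), Ddx4 (1.61 ± 0.60), Tfap2c (1.26 ± 0.13) and Dppa3 (1.09 ± 0.73), and 1, Nanos3, was lower.

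The comparison of AG-haESCs with round sperm sets the lines beside cells of the lineage that gave their genome. Here 18 members were higher in the lines and 5 lower, among the 37 that reached 1 FPKM in 1 of the 4 libraries, in limma's fit over 15938 genes, with bounds of 0.05 on the adjusted p (Benjamini-Hochberg) and 1 on the log2 difference. The background was 22.8% higher and 39.1% lower among all genes tested, and 45.4% higher and 26.3% lower among 672 X-linked ones. By family the counts were 8 higher and 5 lower of 21 for Rhox, 7 and 0 of 9 for Xlr, and 3 and 0 of 7 for Magea. The 18 of 37 lay near the share among X-linked genes. Every estimate was above 0 in Xlr and Magea, in 9 and 7 genes. No gene of either family reached 1 FPKM in round sperm, so all of them passed the filter through the lines. Their common sign was thus largely set by the filter. The lone round sperm library is assumed to vary like the lines. All lines lay above it in 31 of the 47 members and below it in 9. The same count was not made over all genes, so it marks nothing particular to the members. Without filter, the median difference of log2(FPKM + 1) was 1.64 over the 47 members, 0.72 for Rhox, 4.03 for Xlr and 2.18 for Magea, against 0.05 for the 1040 X-linked genes.

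Among members called, Xlr3a and Xlr3c had the largest differences from round sperm. Xlr3a was 5.78 ± 1.03 higher on the log2 scale (estimate ± SE, adjusted p = 0.0247 by limma), Xlr3c 5.25 ± 1.26 (adjusted p = 0.0453), Xlr4a 4.03 ± 0.32 (adjusted p = 0.00482) and Xlr4b 3.34 ± 0.26 (adjusted p = 0.00477). Xlr3b, at 4.31 ± 1.69, and Xlr5a, at 4.07 ± 1.06, did not pass limma's test (adjusted p = 0.119 and 0.0533), although every line lay above round sperm. The AOS-14 line weighed on these genes: without it Xlr3b stood at 5.30 (adjusted p = 0.0200 by limma) and Xlr5a at 4.68 (0.0249), both past the threshold, and Xlr3c at 5.99 (0.00589). The call of Xlr3c was lost without A129-2 (adjusted p = 0.122), without AOS-16 (0.130), with no filter on low values (0.0545) and with equal totals (0.0503). That of Xlr3a was lost without A129-2 (adjusted p = 0.0905) and without AOS-16 (0.0546). Of the Rhox genes, Rhox1 was 4.92 ± 0.61 higher (adjusted p = 0.0120), Rhox6 4.79 ± 0.83 (0.0232) and Rhox9 4.59 ± 0.99 (0.0363), and 5 of the 8 Rhox2 copies passed, with Rhox2h at 1.85 ± 0.10 (0.00243). Rhox13, at 3.66 ± 0.94, missed the threshold (adjusted p = 0.0526). Magea3, Magea5 and Magea8 passed, Magea8 at 2.98 ± 0.58 (adjusted p = 0.0293), and Magea4 did not, at 2.99 ± 1.17 (adjusted p = 0.118). Without A129-2, Rhox1, Rhox6, Rhox9 and Magea3 lost their calls (adjusted p = 0.0551, 0.0716, 0.0905 and 0.120 by limma), and Magea4 passed at 2.31 (0.0150). Without AOS-14, Magea3, Magea5 and Magea8 lost theirs (0.146, 0.150 and 0.121). Without AOS-16, Rhox6, Rhox9 and Magea5 lost theirs (0.0694, 0.0944 and 0.0690).

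The 5 lower members were Rhox11 at -3.98 ± 0.24 (adjusted p = 0.00301 by limma), Rhox3h at -1.98 ± 0.28 (0.0159), Rhox3f at -1.81 ± 0.22 (0.0114), Rhox3a at -1.63 ± 0.08 (0.00220) and Rhox8 at -1.14 ± 0.28 (0.0473). In these 5 every line lay below round sperm. Rhox3h lost its call without A129-2 (adjusted p = 0.0673 by limma) and without AOS-16 (0.0520), and Rhox3f without AOS-16 (0.0544). Single calls moved with the lines used: without A129-2 the counts were 9 higher and 3 lower, without AOS-14 they were 14 and 5, and without AOS-16 they were 10 and 2. Rhox8 was called in 1 of the 8 alternatives, that without AOS-14. The calls of Rhox3f and Rhox3h were also lost with a pseudocount of 0.1, and that of Rhox3f with equal totals. Rhox2h, Xlr4a, Xlr4b, Rhox3a and Rhox11 were called under every setting tried. Of these, Rhox11 shares no window with another gene. The other copies share 49.8 to 97.0% of theirs, so their values depend on how shared fragments were placed. The scaling moved all genes, whose median difference was -0.49 as deposited and 0.40 with equal totals, and the split over all genes went from 3632 higher and 6232 lower to 4867 and 4481, while the members went from 18 and 5 to 18 and 3. With quantile normalization the split was 5252 and 4735 over all genes and 24 and 4 for the members.

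Other genes of the X with germline expression, from a list of 31 in the tables that are no members, showed a split pattern. By the rule for ESC XX, 12 were higher in the lines and 0 lower of 13 that reached 1 TPM. The share called higher was 6.93% over all genes and 42.7% over X-linked ones, which is also the background for the lists that follow. Most of the 13 reached 1 TPM only in the lines, so the filter left little room for a lower count. The largest differences were those of Taf7l (4.38 ± 1.06), a testis form of a basal transcription factor subunit, Tex13 (3.83 ± 1.07) and Fthl17 (3.26 ± 0.74), a ferritin-like gene. Taf7l stood at 64.8, 22.5 and 21.6 FPKM in the lines, 26.0 in round sperm, and 1.00 and 0.904 in ESC XX. Against round sperm, limma called 2 higher (Nxf3 and Fthl17) and 17 lower of 29, and among the lower ones the sperm tail gene Akap4 stood at 803 FPKM in round sperm and at 0, 0.0762 and 0 in the lines. The genes called lower against round sperm reached 1 FPKM only there, so the filter largely set their sign. Relatives of Xlr also differed from it: Slx and Slxl1, known from round spermatids, were listed at 0 in all lines and ESC XX and stood at 1.15 and 23.5 FPKM in round sperm. Sycp3, the autosomal relative, stood at 17.7, 9.31 and 3.26 FPKM in the lines, 90.2 in round sperm, and 1.87 and 1.91 in ESC XX.

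MAGE genes outside the Magea family included the broadly expressed type. Of 16 in the tables, 5 were higher in the lines than in ESC XX and 0 lower of 12, namely Mageb4 (2.42 ± 1.16), Tro (1.80 ± 0.43), Magee1 (1.61 ± 0.25), Maged1 (1.12 ± 0.34) and Mageh1 (1.11 ± 0.43). Their differences were smaller than the median of 3.10 of the Magea genes that reached 1 TPM. Against round sperm, limma called 7 higher and 2 lower of 13.

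Genes that lie beside the Rhox cluster and belong to no germline family were followed as neighbours. Of 17 in the tables, 7 were higher in the lines than in ESC XX and 0 lower of 15, with Pgrmc1, a membrane protein linked to progesterone signalling, at 2.26 ± 0.26, Ndufa1, a subunit of the respiratory chain, at 1.67 ± 0.06, and Rnf113a1 at 1.53 ± 0.25. The median over the 15 was 0.93, near the 0.89 of X-linked genes, compared with 2.44 over the 17 Rhox genes that reached 1 TPM. Against round sperm, limma called 11 neighbours higher and 1 lower of 16, the lower one being Akap14, at 36.2 FPKM in round sperm. Of 18 genes known to act on germline promoters as silencers or as DNA demethylases, 1 was higher in the lines than in ESC XX and 0 lower. It was Dnmt3l, a cofactor of the de novo methyltransferases, at 122, 139 and 211 FPKM in the lines and 57.0 and 59.0 in ESC XX. Dnmt1, the maintenance methyltransferase, stood at 35.2, 55.0 and 49.97 FPKM in the lines and 53.1 and 54.9 in ESC XX, a difference of -0.32 ± 0.20 on the log2 scale. Dnmt3b differed by -0.72 ± 0.17, and both lay below the bound of the rule. Against round sperm, limma called 12 of the 18 higher and 1 lower.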

How the data were processed

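Messenger RNA (polyA, stranded KAPA kit, per the labels' protocols) was processed by the authors with TopHat2 2.0.13, Cuffdiff 2.2.1 and build mm9, all named in the submitters' processing notes. How these were set, and how fragments that fit several copies were handled, is not given in the sources used here. FPKM values per gene symbol were deposited by the authors. The header of the table shared by the AG-haESC and round sperm libraries names no unit, and FPKM was taken from the tool and the values. Each ESC XX library has its own table. The files hold no counts, and depth was estimated from the steps of low values of 5330 genes with 1 annotated transcript (8.25 to 17.6 M fragments, approximate), which limits the precision of low members.

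The lines were compared with round sperm on log2(FPKM + 1) with limma-trend (limma 3.58.1, R 4.3.3), over genes reaching 1 FPKM in at least 1 of the 4 libraries, two-sided, with Benjamini-Hochberg adjustment over all of them. The p-values measure the spread between lines. They were compared with ESC XX without a test, since tables normalized separately were not tested against each other, on TPM computed from the FPKM and log2(TPM + 1). A pseudocount of 1 understates changes of low genes. Alternatives were another pseudocount (0.1), no filter, other scalings and leaving out each library. The limma script was tested on simulated data.

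Chromosomes were found for 99.4% of symbols in a RefSeq annotation of GRCm38.p6, where 1 member, Rhox7, matched by an older symbol. Members and all gene lists were chosen with earlier results of these data known. Named were all members at 1 FPKM in at least 1 library, others by counts, and genes of other lists when called and among the 3 largest differences or when they define a cell type. Eef1a1, Nxf3, Maged1, Mageh1, Dnmt1 and Dnmt3b, and members under 1 FPKM beyond the 3 highest of a family, were named after their values were seen.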

Additional observations from a re-analysis of the deposited data

How the results depend on the processing

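No direction of a called member reversed under any alternative. Against round sperm the count of 18 higher members ranged from 15 to 26 over the other settings, and it was 9 to 14 when 1 line was left out; the count of 5 lower members was 2 with a pseudocount of 0.1 and 3 with equal totals, and 2 to 5 when 1 line was left out. Of the 23 calls, 3 higher and 2 lower held under every setting tried. Against ESC XX the count of 31 ranged from 27 to 31 over all settings except centring on X-linked genes (24), 0 members were lower in any, and apart from that centring 27 calls held throughout. The 4 that did not were Rhox2e, Rhox4a, Rhox4g and Rhox7. The log2 ratios of family sums to round sperm were 3.48 for Rhox, 8.94 for Xlr and 6.34 for Magea with equal totals, and 3.46, 8.87 and 6.29 with genes under 200 nt also left out, against 2.41, 7.76 and 5.19 as deposited. When 1 line was left out they ran from 2.18 to 2.63, 7.47 to 8.13 and 4.60 to 5.5. Those to ESC XX ran from 4.26 to 4.61, 3.66 to 4.37 and 4.61 to 5.69 when 1 library was left out. No paired analysis was possible because the lines carry names rather than replicate numbers, round sperm is a single library, and the ESC XX numbers do not refer to the lines. At these depths members near 0.1 FPKM rest on about 1 fragment per kilobase, so differences among them are not detectable.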
